A study of Mus musculus with 112 samples.

Results

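The mammary tumours of AKXD subline 3 were compared with those of the other sublines of the same panel. They were chosen by the subline named in the sample titles, and they are 3 of 56 tumours, with 6 of 112 arrays. AKXD sublines are recombinant inbred lines that go back to a cross of AKR/J with DBA/2J mice, and each subline carries its own fixed mixture of the 2 parental genomes. Every mouse of the study, in subline 3 and elsewhere, came from an AKXD x PyMT cross and carried the MMTV-PyMT transgene, in which the mouse mammary tumour virus promoter drives polyoma middle T antigen, so all groups share the oncogene and no subline is an untreated control. The tumours arose spontaneously, and RNA of each was read on 2 Affymetrix arrays with largely different probe sets, MOE430A (array A) and MOE430B (array B). The age of the mice is not stated. Each tumour has an animal number and counts as a biological replicate by its title, and the 3 tumours are called tumours 1, 2 and 3 here by their replicate numbers.

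The reference was the unweighted mean of the other sublines on the kept arrays. The rule for this comparison left out some arrays. On array A these are those of subline 23 and tumour 3 of subline 25. On array B they are tumour 3 of subline 11, tumour 2 of subline 23 and tumour 3 of subline 25. This left 49 other tumours in 16 sublines on array A and 50 in 17 sublines on array B. All levels are deposited log2 values, differences are subline 3 minus the mean of the other sublines on that scale, and an error after a difference is its standard error. A probe set is called where limma's adjusted p is under 0.05. The 6 arrays of subline 3 had median correlations of 0.987 to 0.990 with other arrays, inside the range of the other kept tumours on both array types. Tumours 1 and 2 lay outside the range of the others in some controls. In tumour 1 the actin probe sets read 0.724 higher at the 3′ end than at the 5′ end on array A, above the 0.537 that was the highest among the other tumours, and 0.781 on array B, where the others reached 1.89. In tumour 2 the same measure was 0.0759 on array A, just under the lowest of the others at 0.0767, its Gapdh measure was -0.278 against a lowest value of -0.271, and its array median on array B was 6.391 against a highest of 6.388. Tumour 3 lay inside these ranges.

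Middle T antigen is a membrane-bound viral protein that gathers cellular kinases and adaptors and so turns on growth signalling in luminal mammary cells. Recombinant inbred sublines let inherited differences in the response to the same oncogene be compared, because mice of an inbred subline are bred to share a genotype. The mice here came from a cross with PyMT mice, so they also carried genome of the PyMT parent. Interferon-stimulated genes, which come up below, are a large set of antiviral and regulatory genes that are switched on together when cells sense interferon or foreign nucleic acid. In whole tumours, fewer cells of a type and less RNA per cell cannot be told apart.

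The tissue label was borne out by the luminal epithelial markers. Epcam, an epithelial adhesion protein, read 13.11, 13.26 and 13.14 in tumours 1, 2 and 3, and Krt18, a luminal keratin, read 12.89, 13.04 and 12.98. Both lay within the ranges of the other tumours, 12.32 to 13.35 and 11.95 to 13.15. Of the 15 luminal markers on array A, 10 lay above the mean of the other sublines and 5 below, with a median difference of 0.06, and none was called.

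Few probe sets set subline 3 apart. Array A gave 9 calls among 22626 probe sets, 8 higher and 1 lower, which is 0.0398% of those tested. Array B gave 4 among 22511, all higher, which is 0.0178%. The named genes were Paip1, Bex4, Creb3l4, Tmem216, Trmt2a and Tceanc2, which were higher, and Alg14, of which 1 probe set was lower, on array A, and Xaf1, Paip1 and Tmem254a, all higher, on array B. The remaining called probe sets (2 of array A, 1 of array B) have no single gene name in the annotation. These counts were not stable: array A gave 0 calls by limma when no array was left out (323 probe sets at an unadjusted p under 0.05) and 0 when the dimmer part of the probe sets was left out (805 at an unadjusted p under 0.05). With the other tumours pooled into 1 group, Bex4 was the only named gene that was still called.

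**Figure D1:**
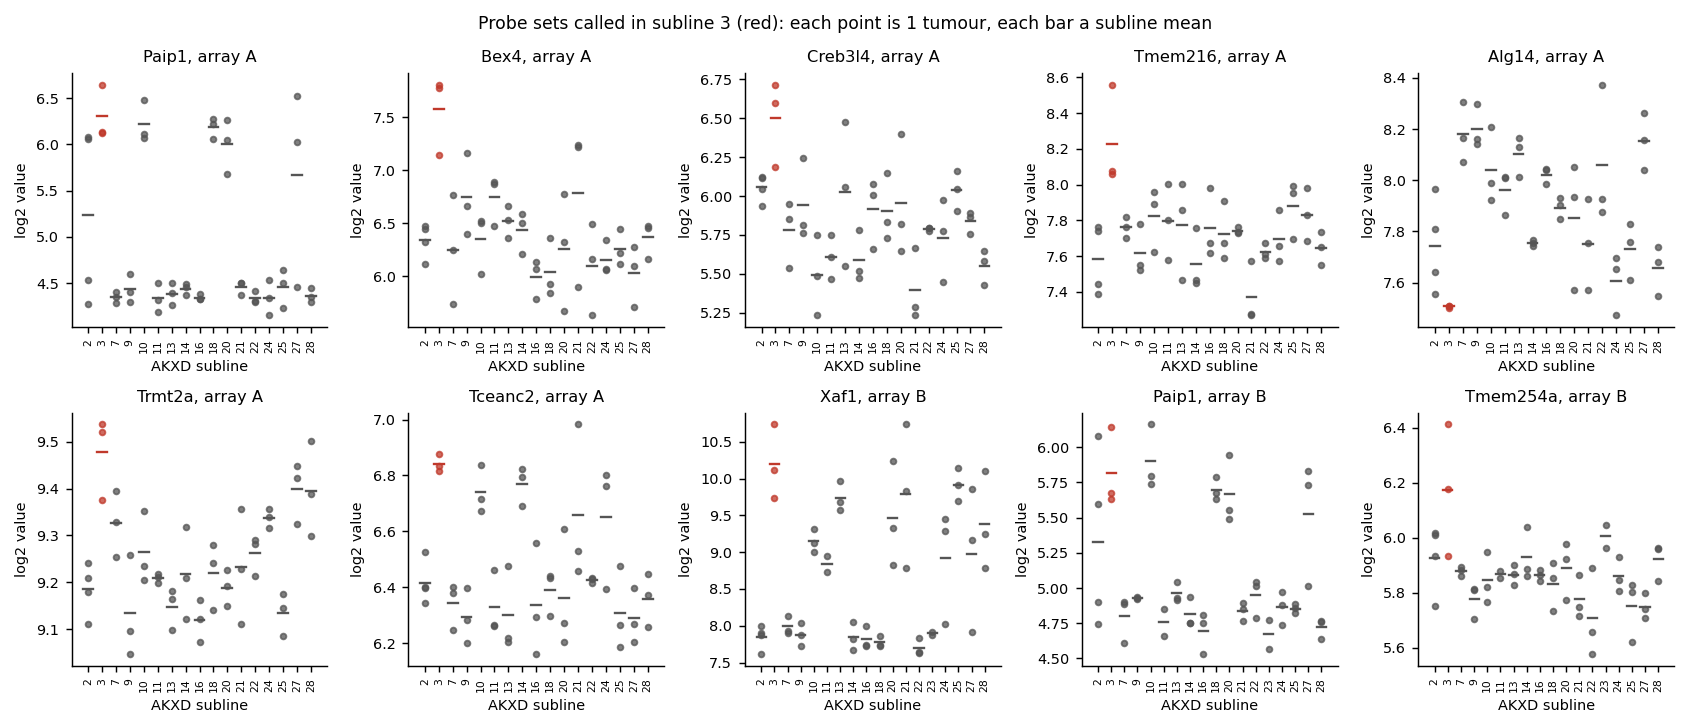
Log2 values (vertical axes) of the 10 called probe sets with 1 gene name in every kept tumour, by AKXD subline (horizontal axes); points are tumours, bars are subline means and subline 3 is red. Paip1 shows separate high and low levels, with subline 3 on the high one. Xaf1 values spread more evenly, with subline 3 in their upper part, and sublines 24 and 27 run from 8.02 to 9.45 and from 7.91 to 9.86. Tmem216 is the only named gene here whose 3 red points all lie above every other tumour.

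Paip1, a partner of the poly(A)-binding protein that promotes translation initiation, was higher in subline 3 on both array types. Its called probe set on array A read 6.13, 6.14 and 6.65 in tumours 1, 2 and 3, and 4.15 to 6.52 with a median of 4.46 in the others. The 3 tumours sit on the upper of the 2 levels that these data show, together with all tumours of sublines 10 and 18, whose means were 6.22 and 6.19, and of subline 20, at 5.69 to 6.27, so the groups overlap. Sublines 27 and 2 held tumours on both levels, from 4.46 to 6.52 and from 4.28 to 6.08. Why tumours of the same subline lay on both levels was not tested. The difference was 1.46 ± 0.23, which is 2.75-fold (limma, adjusted p = 0.00314). On array B the probe set read 5.67, 5.63 and 6.14, against a median of 4.90 in the others, and the difference was 0.76 ± 0.14 (limma, adjusted p = 0.0321). The brighter Paip1 probe set of array A read 9.37, 9.40 and 9.62 and did not pass, at 0.20 ± 0.13, and another on array B was at -0.02 ± 0.06, so the probe sets of the gene disagree. Without tumour 3 the adjusted p was 0.206 on array A, and on array B it was 0.0746 to 0.936 without any 1 of the 3 tumours. With the other tumours pooled into 1 group the adjusted p was 0.691 on array A and 0.865 on array B, and on array B it was 0.0501 with quantile normalization and 0.0602 with median centring.

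Bex4, a member of the brain expressed X-linked family of small proteins, read 7.15, 7.81 and 7.77, and 5.64 to 7.24 with a median of 6.34 in the other tumours. Tumours 2 and 3 lay above every other tumour, and 3 other tumours lay above tumour 1. The difference was 1.24 ± 0.20, or 2.36-fold (limma, adjusted p = 0.00314). The subline with the next highest mean, subline 21, had 6.79 ± 0.77 (SD, n = 3). Without tumour 2 the difference was 1.12 with an adjusted p of 0.142, and without tumour 3 it was 1.14 with an adjusted p of 0.169.

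Creb3l4, a transcription factor of the CREB3 family that is anchored in the endoplasmic reticulum membrane, read 6.18, 6.72 and 6.60, against 5.24 to 6.47 with a median of 5.78 in the other tumours. Tumours 2 and 3 again exceeded every other tumour. The difference was 0.71 ± 0.13 (limma, adjusted p = 0.0248), with adjusted p-values of 0.306 without tumour 2 and 0.456 without tumour 3. Over the 17 subline means the probe set most like it was that of Spdef, an epithelial transcription factor, with a Pearson correlation of 0.94. Spdef itself read 8.59, 9.07 and 8.91 in subline 3 and differed by 0.64, which did not pass (limma, adjusted p = 0.575).

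Tmem216, a protein of the ciliary transition zone, read 8.07, 8.56 and 8.06, and at most 8.004 in any other kept tumour, so the groups did not overlap. The difference was 0.53 ± 0.10 (limma, adjusted p = 0.0248). A brighter probe set of the gene read 9.68, 10.18 and 9.55 and pointed the same way at 0.36 ± 0.11, but did not pass (limma, adjusted p = 0.356). Tumour 2 was the highest on both. Without it the difference fell to 0.37 with an adjusted p of 0.426, and without tumour 3 the adjusted p was 0.0775.

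Alg14, part of the enzyme that extends the lipid-linked precursor of N-glycans, gave the only lower call. Its probe set read 7.50, 7.51 and 7.51, the lowest mean of the 17 sublines, and the other tumours spanned 7.47 to 8.37 with a median of 7.93. The groups overlapped at 1 other tumour. The difference was -0.41 ± 0.08 (limma, adjusted p = 0.0382), and the adjusted p was 0.152 to 0.393 without any 1 of the 3 tumours although the difference stayed at -0.41. The 2 other Alg14 probe sets did not go the same way: the brightest read 9.86, 9.77 and 9.92 with a difference of 0.14 ± 0.05, and the dimmest differed by 0.02 ± 0.09.

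Trmt2a, a tRNA methyltransferase, and Tceanc2, a protein related to a transcription elongation factor, had small differences. Trmt2a read 9.52, 9.38 and 9.54, against a median of 9.22 in the others, a difference of 0.24 ± 0.05 (limma, adjusted p = 0.0382). Tceanc2 read 6.83, 6.82 and 6.88, against a median of 6.40, a difference of 0.41 ± 0.08 (limma, adjusted p = 0.0468), and sublines 14 and 10 had means close to it, 6.77 and 6.74. The other Trmt2a probe sets on array A differed by 0.14 to 0.32 and those on array B by -0.00 and 0.05, and the Tceanc2 probe set on array B by 0.11, and none of these passed. Neither was called without any 1 of the 3 tumours, with adjusted p-values of 0.0698 to 0.724 for Trmt2a and 0.159 to 0.674 for Tceanc2. Trmt2a was called in 1 of 12 alternative settings and Tceanc2 in 2 of 11.

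Xaf1, an interferon-induced binding partner of the apoptosis inhibitor XIAP, had the largest difference among the called probe sets. It read 10.11, 9.74 and 10.74, and the others ran from 7.61 to 10.73 with a median of 8.09. Tumour 3 lay just above the highest other tumour, 8 others lay above tumour 2, and sublines 25, 21 and 13 had means of 9.91, 9.79 and 9.74, so subline 3 shares its level with others. The difference was 1.55 ± 0.27, or 2.94-fold (limma, adjusted p = 0.0113). A different Xaf1 probe set of about the same brightness read 8.70, 8.47 and 9.00 and differed by 0.07 ± 0.23 (limma, adjusted p = 0.959). Without tumour 1 the adjusted p was 0.0852 and without tumour 3 it was 0.585, and with all other tumours pooled into 1 group it was 0.865.

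Tmem254a, a predicted membrane protein, read 6.41, 5.94 and 6.18 on array B, against 5.58 to 6.05 in the others. Tumours 1 and 3 exceeded all of these and tumour 2 did not. The difference was 0.33 ± 0.06 (limma, adjusted p = 0.0331), and it was 0.21 with an adjusted p of 0.596 without tumour 1, and 0.32 with an adjusted p of 0.579 without tumour 3. Of all 13 called probe sets the smallest adjusted p belonged to 1 that matches several genes and is therefore not named. It read 11.00, 10.80 and 11.36 on array B, above the highest other tumour at 10.73, with a difference of 1.04 ± 0.12 (limma, adjusted p = 4.35e-06), and it was called in every alternative setting that was run, with adjusted p-values of up to 0.00768 where 1 of the 3 tumours was left out. The unnamed probe sets of array A read 5.70, 6.36 and 5.41, and 7.33, 8.11 and 7.88.

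Groups that did not overlap were rare. On each array 3 probe sets had all 3 subline 3 tumours above every other kept tumour, which is 0.0133% of those tested on array A and 0.0133% on array B, and none had all 3 below. Besides Tmem216 and the unnamed probe set of array B these included Hsd3b7, an enzyme of bile acid synthesis, which read 10.79, 10.57 and 10.66 against at most 10.48 elsewhere and did not pass (0.50 ± 0.11; limma, adjusted p = 0.0988). Pdk1, a kinase that restrains entry of pyruvate into the citric acid cycle, read 7.24, 7.45 and 7.59 at 1 probe set against at most 7.22, and did not pass either (0.94 ± 0.30; limma, adjusted p = 0.43). Its brighter probe set read 9.54, 9.36 and 9.29, with 13 other tumours above the lowest of these. On array B, Vstm2l read 7.91, 7.85 and 7.89 against at most 7.84 elsewhere, and did not pass (0.21 ± 0.05; limma, adjusted p = 0.423).

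Away from the called probe sets, an unadjusted p under 0.05 was reached by 5.55% of those of array A and by 6.13% of those of array B. On array A these were 828 higher and 427 lower, and on array B 1057 higher and 323 lower. The split on array B moved with the scaling, to 573 and 536 after median centring and to 704 and 506 after quantile normalization. A difference above 0 was found at 49.1% of the probe sets of array A and 62.8% of array B, so a count of members above 0 reads against those shares.

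The interferon-stimulated genes tended to be high in subline 3 without passing the test one by one. Of the 31 genes of the list 26 were measured on array A: 24 differed upwards and 2 downwards, 10 reached an unadjusted p under 0.05, all upwards, and 0 were called by limma. The median difference of the list was 0.38, against -0.00 over all probe sets of array A. The median was 0.29 to 0.53 over the alternatives, and the number at an unadjusted p under 0.05 was 10 in this fit, 12 without tumour 2, 3 without tumour 1 and 1 without tumour 3. The list was chosen with earlier results of these data known.

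The promoters below show what sits before the start of such genes. They are 250 bases before to 50 bases after the RefSeq start in GRCm38.p6, and capitals mark matches on either strand to GAAA followed by any 2 bases and GAAA again, a form of the core that interferon-activated factors bind. Ifih1, Oas1a and Rsad2 are shown because they hold a match and were among the members with an unadjusted p under 0.05. Xaf1 is shown as the called member, and it holds no match at this gap of 2 bases. Its window does hold gaaacgaaa, a GAAA pair with a shorter gap that was not counted. The choice of genes, and the motif, were made after the values were seen.
Ifih1, chr2:62646206-62646505, minus strand: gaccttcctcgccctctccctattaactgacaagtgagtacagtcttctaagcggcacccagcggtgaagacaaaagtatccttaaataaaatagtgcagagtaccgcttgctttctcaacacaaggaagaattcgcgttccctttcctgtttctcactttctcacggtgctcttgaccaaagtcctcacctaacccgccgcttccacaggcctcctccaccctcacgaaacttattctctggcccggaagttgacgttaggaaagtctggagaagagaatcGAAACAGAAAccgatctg
Oas1a, chr5:120907476-120907775, minus strand: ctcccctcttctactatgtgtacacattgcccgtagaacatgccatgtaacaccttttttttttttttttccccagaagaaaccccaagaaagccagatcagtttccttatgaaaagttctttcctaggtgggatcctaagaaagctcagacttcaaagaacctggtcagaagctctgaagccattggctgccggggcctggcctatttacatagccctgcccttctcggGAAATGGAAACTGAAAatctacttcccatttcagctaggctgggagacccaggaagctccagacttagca
Rsad2, chr12:26456403-26456702, minus strand: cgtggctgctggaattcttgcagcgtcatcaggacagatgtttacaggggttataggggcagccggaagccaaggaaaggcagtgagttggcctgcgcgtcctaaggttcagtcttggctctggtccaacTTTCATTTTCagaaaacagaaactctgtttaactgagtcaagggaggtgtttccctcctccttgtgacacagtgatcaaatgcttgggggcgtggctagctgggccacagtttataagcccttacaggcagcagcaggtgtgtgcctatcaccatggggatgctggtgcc
Xaf1, chr11:72301379-72301678, plus strand: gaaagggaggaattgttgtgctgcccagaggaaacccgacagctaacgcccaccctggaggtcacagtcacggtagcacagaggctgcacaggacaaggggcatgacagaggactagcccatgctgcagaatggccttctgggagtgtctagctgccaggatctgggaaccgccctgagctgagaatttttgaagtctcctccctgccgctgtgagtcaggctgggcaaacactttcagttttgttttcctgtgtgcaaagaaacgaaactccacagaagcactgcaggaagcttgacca

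Of the 20 list genes in the promoter table, 12 held the motif in this window, which is 60%, against 3.99% of the 27025 genes in the table. In Oas1a 2 matches overlap. Irf7, Irf9 and Ifi35 held no match, which says only that these letters are not in the window.

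Ifih1, a sensor of double-stranded RNA in the cytoplasm, had the smallest p of the list on array A. It read 9.85, 9.92 and 10.11, and 8.58 to 10.24 with a median of 9.39 in the others, and subline 3 had the highest mean of the 17 sublines. The difference was 0.55 ± 0.19 (limma, adjusted p = 0.551). Oas1a, which makes the oligoadenylates that activate an antiviral RNase, read 10.71, 10.31 and 10.84 against a median of 9.85 in the others (0.75 ± 0.32; limma, adjusted p = 0.797). Irf7, a transcription factor that amplifies the interferon response, read 10.62, 10.27 and 10.77 against a median of 9.75 (0.83 ± 0.36; limma, adjusted p = 0.84). Mx2, a dynamin-like antiviral GTPase, read 8.44, 8.19 and 8.33 against a median of 8.08 (0.26 ± 0.11; limma, adjusted p = 0.841). All 4 overlapped the other tumours, and at 5 to 16 of these the value was above the lowest of subline 3.

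**Figure D2:**
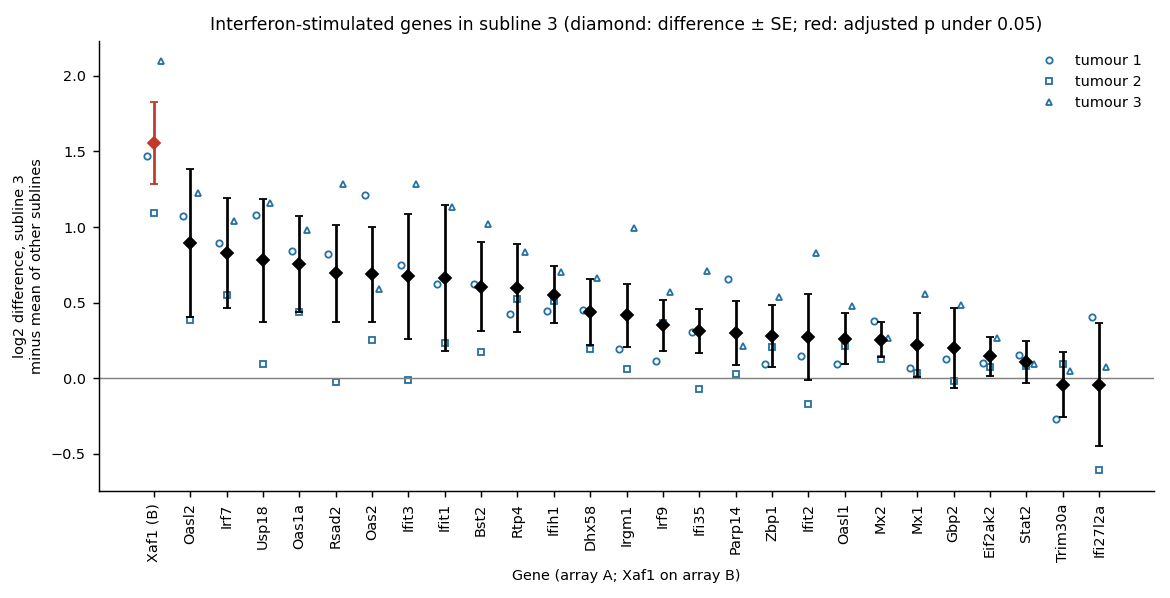
Log2 difference of each interferon-stimulated gene (horizontal axis, array A except Xaf1 on array B) between subline 3 and the mean of the other sublines; diamonds are differences ± SE, open symbols the 3 tumours, and red marks an adjusted p under 0.05. Tumour 3 lies highest for most genes and tumour 2 often lies near 0, and only Xaf1 passed.

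The 3 tumours did not share this pattern equally. The list score, the mean over the 26 genes of the log2 value minus the mean of the other sublines, was 0.45, 0.14 and 0.69 in tumours 1, 2 and 3, and -0.77 to 1.06 with a median of -0.06 in the others. Subline 3 ranked 2 of 17 by its mean, and 8 of 49 other tumours lay above that mean. Rsad2, an antiviral radical SAM enzyme, read 10.07, 9.22 and 10.53, so tumour 2 was level with the median of the others at 9.27. On array B 4 list genes were measured, all above 0, and the 1 called was Xaf1. That count rests on taking the brightest probe set of a gene over all kept arrays, 8.73 against 8.67 for the other Xaf1 probe set; over the other sublines alone the order is 8.64 against 8.65, and the probe set with no difference would stand in the list.

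Markers of immune cells are given beside these values. The T and NK cell list had 4 of 11 genes above 0 on array A with a median difference of -0.02, and its score was 0.09, -0.02 and -0.12 in tumours 1, 2 and 3 against -0.21 to 0.37 in the others. Macrophage markers had 1 of 10 above 0 and a median of -0.08, with scores of -0.33, -0.13 and -0.02. Cd68, a macrophage lysosomal protein, had the smallest p of that list (-0.48 ± 0.19; limma, adjusted p = 0.749). B and plasma cell markers had 1 of 7 above 0. The scores of these lists and of the interferon list all lay inside the ranges of the other tumours on array A. The part of immune cells in the interferon values was not tested.

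Antigen presentation genes are known targets of interferon. Of 10 MHC class I and antigen-processing genes on array A 9 lay above 0, with a median of 0.13 and 0 at an unadjusted p under 0.05. On array B 2 of 3 such genes lay above 0, with a median of 0.02. MHC class II genes split into 4 above and 3 below on array A, with 1 at an unadjusted p under 0.05, and all 3 on array B lay above 0. That 1 was H2-Ea, a class II alpha chain, which read 9.47, 9.48 and 9.40 at its brightest probe set against a median of 9.70 (-0.32 ± 0.11; limma, adjusted p = 0.575). A dimmer H2-Ea probe set read 7.11, 6.90 and 6.59 against a median of 7.38 and a highest value of 10.67 (-1.28 ± 0.47; limma, adjusted p = 0.615). Of the Xaf1 partners and apoptosis list, 7 of 13 on array A lay above 0 with a median of 0.01, and Xiap itself read 9.69, 10.15 and 9.89 within the other tumours' 9.54 to 10.25. Of the poly(A) tail and translation initiation list, where Paip1 entered at its brighter probe set, 10 of 16 lay above 0 with a median of 0.03. Of the N-glycan precursor list 14 of 20 lay above 0, and Dad1, a subunit of the oligosaccharyltransferase, read 11.48, 11.47 and 11.61 (0.18 ± 0.06; limma, adjusted p = 0.488). None of these genes was called on array A at its brightest probe set, and on array B Xaf1 was the only called member of these lists.

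Among the signalling partners of middle T antigen, 6 of 14 genes lay above 0 on array A and 0 reached an unadjusted p under 0.05. On array B 2 of 8 lay above 0, with a median of -0.07, and subline 3 ranked 17 of 18 by the list score, with 43 of 50 other tumours above its mean. The 1 of these at an unadjusted p under 0.05 was Pik3r1, lower. Pik3r1, the regulatory subunit of the kinase that middle T recruits, read 11.33, 10.91 and 11.11 on array B against a median of 11.56, the lowest mean of the 18 sublines, and did not pass (-0.44 ± 0.14; limma, adjusted p = 0.712). Of the proposed metastasis modifiers, 4 of 6 lay above 0 on array A; Cadm1, an adhesion protein, had the smallest p there (-0.24 ± 0.13; limma, adjusted p = 0.959), and Sipa1 differed by 0.00 ± 0.08. On array B both modifiers measured lay above 0, and subline 3 ranked 1 of 18; Tpx2, a spindle assembly factor, differed there by 0.21 ± 0.10 (limma, adjusted p = 0.806) and on array A by 0.07 ± 0.12. Cell cycle genes had 19 of 21 above 0 but a median of only 0.04, with scores of 0.12, -0.24 and 0.23. On array B 2 of 6 cell cycle genes lay above 0, against 62.8% of all probe sets there, with a median of -0.09, and 1, Mcm6, reached an unadjusted p under 0.05, downwards. Fos, an immediate early transcription factor, read 11.11, 10.17 and 10.51 against a median of 10.95 (-0.34 ± 0.13; limma, adjusted p = 0.716), with tumour 2 below every other tumour and tumour 1 above the median.

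**Figure D3:**
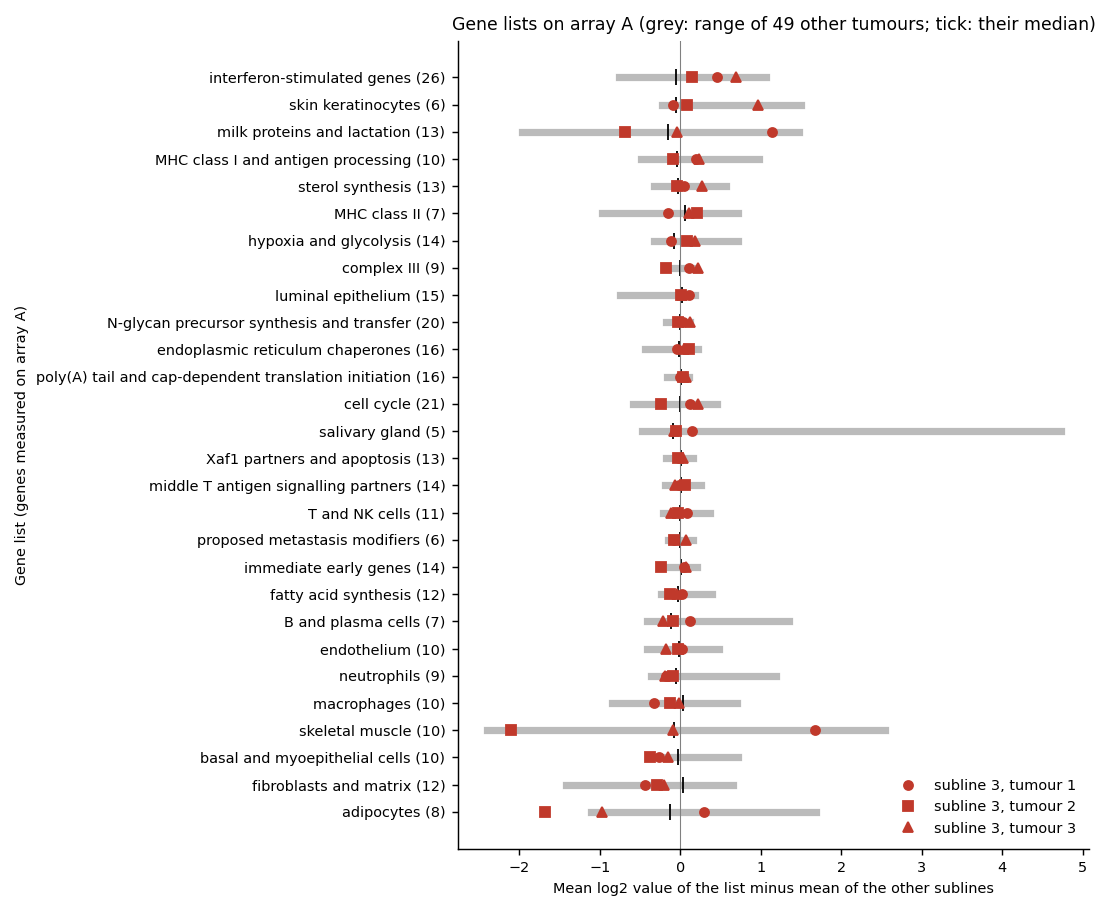
Scores of the gene lists with at least 5 genes on array A (horizontal axis: mean log2 value of the list minus the mean of the other sublines); red symbols are the 3 tumours of subline 3, grey bars the range of the other 49 and ticks their median. The interferon list is high in tumours 1 and 3, and the muscle and milk lists spread the 3 tumours apart. Tumour 2 lies below the range in the fat, basal and immediate early lists, and tumour 3 lies above it in the complex III list.

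Stromal and basal markers lay on the low side. All 12 fibroblast and matrix genes on array A were below 0, with a median of -0.32, and 9 of 10 basal and myoepithelial genes were, with a median of -0.27, but none was called. Fn1, the matrix protein fibronectin, read 10.34, 10.87 and 10.67 against a median of 11.19 (-0.54 ± 0.23; limma, adjusted p = 0.808). Acta2, the smooth muscle actin of myoepithelial cells, read 10.12, 10.09 and 10.39 against a median of 10.60 and a lowest value of 10.16 in the others. Krt5, a basal keratin, read 9.17, 8.32 and 9.36 against a median of 9.32. Subline 3 ranked 17 of 17 by its basal score and 16 of 17 by its matrix score, with 45 and 40 of 49 other tumours above its mean. Tumour 2 scored -0.37 on the basal list, under the lowest other tumour at -0.33. On array B the 4 matrix genes measured did not follow, with 3 above 0.

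Fat markers depended on the tumour. All 8 measured on array A had a difference below 0, with a median of -0.66, but the score was 0.29, -1.68 and -0.98 in tumours 1, 2 and 3, and the lowest other tumour was at -1.11. Adipoq, the adipocyte hormone adiponectin, read 9.19, 5.34 and 7.32, and 6.17 to 11.40 in the others, so tumour 2 was below all of them and tumour 1 above their median of 8.84. It was not called (-1.60 ± 0.81; limma, adjusted p = 0.921). Skin keratinocyte markers were high in tumour 3 alone: the score was -0.09, 0.08 and 0.97, and Krt10, a keratin of the upper epidermis, read 6.96, 7.23 and 9.26 against a median of 7.07. Without tumour 3 the median of that list went from 0.36 to -0.00. Aqp5, a water channel that was listed as a salivary gland gene, was high in all 3 tumours at 12.72, 12.97 and 12.78 against a median of 12.35 (0.47 ± 0.13; limma, adjusted p = 0.315), and of the rest of that list Dcpp1 also lay above the mean of the other sublines, at 7.60, 7.46 and 7.63 against a median of 6.72 (0.70 ± 0.42, not called), and Amy1, Bpifa2 and Smr3a below it. On array B the 1 salivary gene measured, Prr27, lay above it by 0.16 ± 0.07 (limma, adjusted p = 0.806).

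The widest spread inside subline 3 was in muscle genes. Of the 10 named genes with the largest range on array A, Tnnc2, Myh4, Acta1, Myh1, Atp2a1, Tnni2 and Ttn belong to the contractile apparatus or calcium handling of skeletal muscle. Myh4, a fast myosin, read 10.71, 5.16 and 8.46 in tumours 1, 2 and 3, and 4.70 to 11.64 in the others. Acta1, skeletal actin, read 13.08, 7.69 and 11.74. Tumour 1 was thus in the upper part of the range of all tumours and tumour 2 near its bottom, and the muscle list scores were 1.68, -2.10 and -0.09.

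Secretory genes followed the same order in part. Scgb1b27, a secretoglobin, read 13.76, 9.14 and 10.90, and Pip, a secreted gland protein, read 9.74, 5.17 and 5.68, so tumour 1 stood above both others. Csn2, the milk protein beta-casein, read 13.67, 9.66 and 12.34, and the milk list scored 1.13, -0.69 and -0.04. Car3, an enzyme of fat and muscle, read 11.82, 7.30 and 10.32, with tumour 2 below the lowest other tumour at 8.97.

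**Figure D4:**
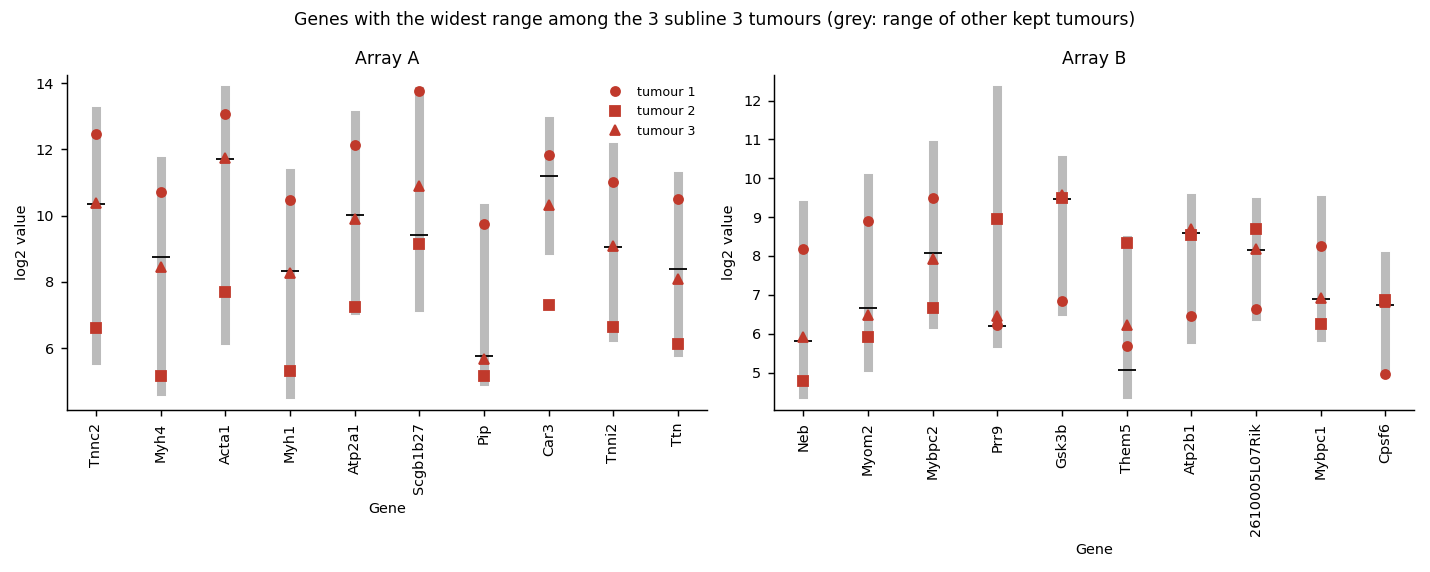
Log2 values (vertical axes) of the 10 genes per array with the widest range among the 3 subline 3 tumours (horizontal axes); red symbols are the tumours, grey bars the range of the other kept tumours and ticks their median. Muscle genes are high in tumour 1 and low in tumour 2, and on array B Gsk3b, Atp2b1 and Cpsf6 are low in tumour 1 alone.

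On array A, of 22626 probe sets, tumours 1, 2 and 3 were more than 1 log2 unit below both others at 68, 51 and 1. They were as far above both others at 86, 16 and 8. On array B, of 22511 probe sets, the counts were 37, 12 and 0 below and 12, 4 and 2 above. Gsk3b, a kinase of Wnt and insulin signalling, read 6.85, 9.50 and 9.58, Atp2b1, a plasma membrane calcium pump, read 6.44, 8.53 and 8.70, and Cpsf6, a cleavage and polyadenylation factor, read 4.96, 6.87 and 6.82. Tumour 1 is also the tumour of subline 3 with the largest 3′ to 5′ gap at actin. On array B that gap, 0.781, lay inside the range of the others, which reached 1.89. The part of that gap in these values was not tested.

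Subline 3 was then placed on a list of genes that differ among the sublines. That list of 33 genes was chosen on these tumours, so it is a description only. Taking the midpoint between the lowest and the highest subline mean of each gene, all 3 tumours lay on the high side in 17 genes, all 3 on the low side in 13, and they were split in 3 (Mpdz, Kif5b and Marchf3). Subline 3 had the highest mean for Metap1d, Paip1, Xaf1 and Pdk1 and the lowest for Sdc4 and Alg14. Uqcr10, a subunit of respiratory complex III, read 7.09, 7.01 and 6.98 and lay on the low side with 13 other tumours below the highest of these (-0.48 ± 0.10; limma, adjusted p = 0.0711). H2-D1, an MHC class I heavy chain, read 9.88, 9.56 and 10.32 at 1 probe set (2.19 ± 0.63; limma, adjusted p = 0.334) and 6.48, 6.60 and 6.54 at another (-2.05 ± 0.63; limma, adjusted p = 0.407), so its probe sets pointed in opposite directions. Sdc4, a cell surface proteoglycan, read 8.64, 9.77 and 9.48 against a median of 10.00 (-0.88 ± 0.30; limma, adjusted p = 0.541).

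Because a subline inherits blocks of chromosome, the measured genes next to each called gene were listed, 15 on each side; this description was added after some pairs were noticed among the genes with small p. Of the 30 neighbours of each of the 9 called genes, 1 to 5 had an unadjusted p under 0.05 and 0 were called by limma. Over all 18193 named genes at their smallest p, 9.98% had an unadjusted p under 0.05, the share against which these counts read. Bex4 on chromosome X had Bex2 close by, with 2 genes between them, and Bex2 read 8.46, 8.90 and 9.06 against a median of 8.09 (0.68 ± 0.17; limma, adjusted p = 0.204). Bex1, of the same family, read 8.91, 9.49 and 9.46 against a median of 8.21 (1.02 ± 0.46; limma, adjusted p = 0.854). Farther from Xaf1 on chromosome 11, with 23 genes between them, lies Atp2a3, a calcium pump of the endoplasmic reticulum. Atp2a3 read 9.97, 9.97 and 9.53 against at most 9.64 in the others, a difference of 0.99 ± 0.22 (limma, adjusted p = 0.107). Vps37c, a protein of endosomal sorting on chromosome 19, has 8 genes between it and Tmem216. It went the other way at 8.59, 8.46 and 8.20 against a median of 8.84, a difference of -0.36 ± 0.09 (limma, adjusted p = 0.2). Of the 5 neighbours of Paip1 at an unadjusted p under 0.05, 2 were higher and 3 lower. The adjacent 4833420G17Rik differed by -0.29 ± 0.08 and Ccl28 by 0.31 ± 0.09.

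**Figure D5:**
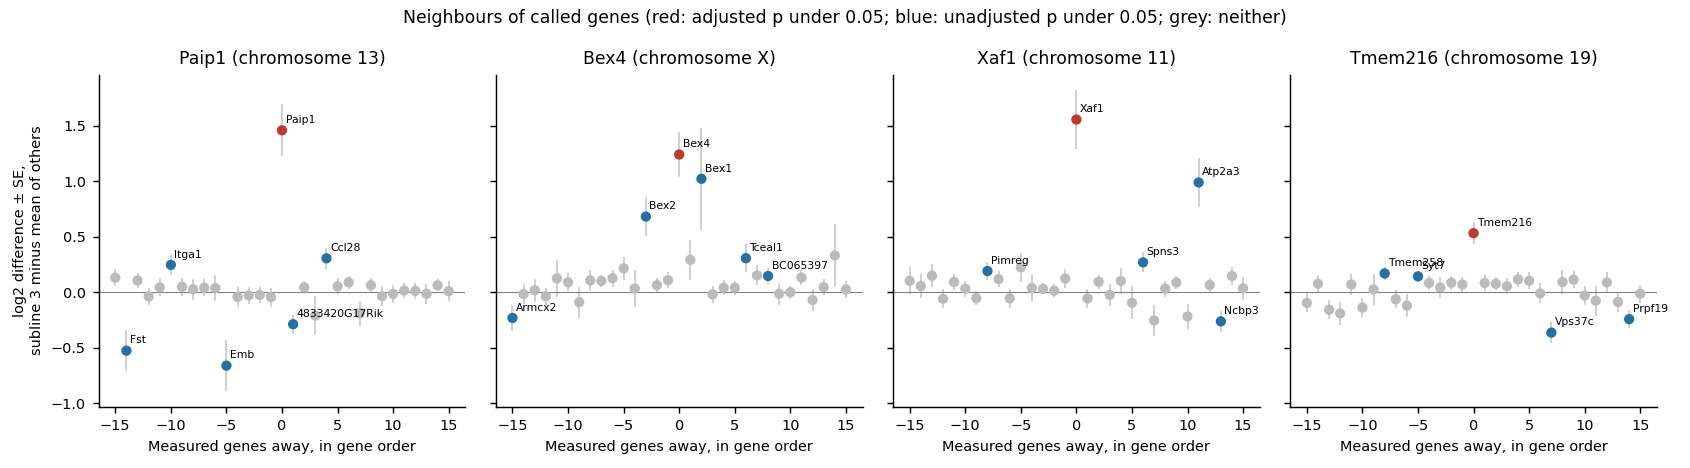
Log2 difference ± SE (vertical axis) of the measured genes on either side of Paip1, Bex4, Xaf1 and Tmem216, by their place in gene order (horizontal axis); red is an adjusted p under 0.05, blue an unadjusted p under 0.05 and grey neither. Most neighbours lie near 0, with Bex1, Bex2 and Atp2a3 the clearest exceptions upwards.

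The 2 array types gave like values where they could be compared. Of the 100 probe sets present on both, 77 had a difference of the same sign, and the 9 with an unadjusted p under 0.05 on array A all did; the same RNA went onto both arrays. The correlation of the differences across these probe sets was 0.837, given as a description since probe sets are not replicates.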

How the data were processed

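RNA of each tumour was read on 2 single-colour arrays, deposited as separate tables. The deposited values are log2 values made with RMA by the authors, per the submitters' processing notes; its version and settings are not stated. They were used as given, without control probe sets, and columns of other series numbered 0. Gene names came from the platform annotation, updated through RefSeq (GRCm38.p6). In limma 3.58.1 (R 4.3.3) a model with 1 mean per subline, with 35 residual degrees of freedom, gave the contrast of subline 3 with the mean of the other sublines, adjusted by Benjamini-Hochberg within each array. The p-values set a difference against the spread between tumours of the same subline, not against the spread between sublines. A gene at 2 levels across sublines, such as Paip1, can therefore pass although other sublines share its level. With the other tumours pooled into 1 group, differences among the other sublines enter the spread. With arrays, their number limits the precision. Replicate numbers are not stated to pair tumours: same-numbered tumours of different sublines had a median correlation of deviations of 0.000675 on array A and 0.0156 on array B.

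Members and lists were chosen with earlier results of these data known. Genes were named if called; if groups did not overlap and the higher side exceeded the absent poly-A controls, taken as their mean per array after single controls were seen to read high; as up to 4 members per list with the smallest p; as the 10 widest ranges in subline 3; from the list of genes that differ among sublines; and as the 3 most alike by correlation. Epcam, Rsad2, Xiap, Sipa1, Smr3a, Dcpp1 and Csn2, a dimmer H2-Ea probe set, the promoters and the neighbours were chosen after values were seen. List values use the brightest probe set of a gene. Tested on simulated data with 22626 probe sets, the fit for array A recovered 64% of changes of 0.5, 94% of 1 and 100% of 2. With 22511 probe sets for array B it recovered 92% of changes of 0.5. The simulation had independent normal noise and 50 changed probe sets at each size. With fewer changed probe sets the adjustment is stricter, so these shares do not give the power in the tumours. Tables were handled in Python 3.11.15 with pandas 2.3.3. Alternatives were a replicate block, all arrays, pooled other tumours, fewer sublines, dimmer probe sets left out, quantile normalization, median centring, array weights, a trended robust prior and leaving out each tumour.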

Additional observations from a re-analysis of the deposited data

How the results depend on the processing

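On array A the 9 calls became 0 with all arrays, 3 with the other tumours pooled, 18 without sublines 2, 20, 24 and 27 (all 9 among them), 0 with the dimmer probe sets left out, 5 with median centring and 3 with array quality weights. Leaving out subline 3 tumours gave 2 to 11 (11 without tumour 1, 2 without tumour 2 and 2 without tumour 3). On array B the 4 calls became 1 with the other tumours pooled, and 2 each with the dimmer probe sets left out, quantile normalization and median centring; leaving out tumours gave 1 to 4 (2 without tumour 1, 4 without tumour 2, 1 without tumour 3). The causes were not tested. The replicate block gave 9 calls on array A, 7 of them shared, and 5 on array B, 4 of them shared; 11 of 52 tumours on array A and 19 of 53 on array B correlated best with a tumour of their own number. No called gene changed direction under any alternative run. Of the uncalled values the dimmest Alg14 probe set was -0.0466 with all arrays; without single tumours of subline 3 it was -0.0323 to 0.0849, the uncalled Xaf1 probe set -0.0686 to 0.198 and Sipa1 -0.0288 to 0.0203. Without sublines 2, 20, 24 and 27, Uqcr10 (-0.41; limma, adjusted p = 0.0172), both H2-D1 probe sets (1.86 and -1.79) and the dimmer H2-Ea probe set (-1.02; limma, adjusted p = 0.0183) were called. Sublines 2, 20, 24 and 27 were only removed together, so the part of each in these new calls was not tested. With them kept, the differences were larger in size: -0.48 for Uqcr10, 2.19 and -2.05 for H2-D1 and -1.28 for the dimmer H2-Ea probe set. Subline 24 had the highest mean for Uqcr10 (8.09) and the dimmer H2-Ea probe set (9.85). It had the lowest for 1 H2-D1 probe set (5.49). Sublines 2 and 27 had the widest Paip1 spreads on array A (SD 0.97 and 1.07). Of 54 list medians over both arrays 30 kept their sign in every alternative, among them those of the interferon, basal, fibroblast and fat lists on array A, and 24 changed it in some. Detection calls were not used here, so the signal of dim probe sets over background was not judged.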
